A study of Sus scrofa with 18 samples.

Results

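The genes described here are 9 core genes of the Sonic hedgehog pathway in the fetal pig brain: the ligand gene SHH, the receptor gene PTCH1, the coreceptor genes CDON and BOC, the signal transducer gene SMO, the transcription factor genes GLI1, GLI2 and GLI3, and the inhibitor gene HHIP. They were found by gene symbol, after earlier results of these data were known, and all 9 were present among the 31908 genes of the count table and passed the filter on low counts. RNA was sequenced from 18 whole brains of untreated fetuses, 3 females and 3 males each at gestation days 45, 60 and 90 (GD45, GD60 and GD90). The dams were Landrace × Large White gilts inseminated with LR-M6 semen, and each library came from 1 fetus. The labels name no litter, but the gestation day and the litter size match each female fetus to 1 male fetus, in 9 pairs. Female libraries carry replicate numbers 12, 13 and 18 at GD45, 3, 5 and 15 at GD60, and 2, 7 and 9 at GD90. Male libraries carry 11, 14 and 17 at GD45, 4, 6 and 16 at GD60, and 1, 8 and 10 at GD90, and values below follow these orders.

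Hedgehog signaling patterns the ventral neural tube and later drives the division of neural precursors, among them the granule cell precursors of the cerebellum. Without ligand, the receptor PTCH1 keeps SMO inactive and GLI3 is cut into a repressor at the primary cilium. When SHH binds PTCH1 together with CDON or BOC, SMO is released and GLI2 and GLI3 act as activators, and GLI1, PTCH1 and HHIP are themselves transcribed in response. PTCH1 and HHIP bind the ligand and thereby limit the signal.

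The libraries held 15118843 to 19729783 counts on genes (median 16413097). Levels are given in CPM, the count of a gene scaled to the size of its library, with TMM factors for composition of 0.8486 to 1.0722. Comparisons between genes use FPKM, the same value per 1000 bases of gene length. All 10 neuron markers were detected and summed to 6880 CPM or more in every library, while pituitary markers reached 58.9 CPM in female GD60 replicate 15 and 24.7 CPM in female GD45 replicate 13. Male GD45 replicate 17 had the lowest TMM factor, and by the labels its brain and that of its matched female were the lightest of all. Male GD90 replicate 1 had the highest summed granule neuron progenitor markers of its day (331 CPM, beside 190 in its matched female and 91.3 to 110 in the other GD90 libraries). It was also highest of its day in other marker lists, given below. Results that rest on male GD45 replicate 17 or male GD90 replicate 1 are given without it. The 7 posterior HOX genes, markers of hindbrain and spinal cord, moved with the earlier step. They summed to 7.13 to 87.5 CPM in GD45 females (highest in replicate 13) and 0 to 23.7 CPM in GD45 males. The sum was at most 3.46 CPM at GD60 and 1.01 CPM at GD90. HOXA5 and HOXB5 had a median count of 0 over the 18 libraries. From GD45 to GD60, 4 of the 7 fell in females, where 2.88% of all genes tested fell, and none was called in males, where 2.53% fell. The part of these HOX genes in the members' changes was not tested.

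At GD45 the order of the levels per length was SMO, GLI3, BOC, CDON, PTCH1, GLI2, SHH, GLI1 and HHIP. SMO had the highest mean, 20.9 ± 2.89 FPKM (SD, n = 6), and GLI3 followed with 14.6 ± 2.11 FPKM. BOC, CDON and PTCH1 lay close together, with FPKM means of 6.92, 5.73 and 4.96 and ranges that overlapped between neighbours. SHH, with 1.59 ± 0.434 FPKM, was not separated from GLI2 at 1.93 ± 0.6 FPKM, and GLI1 and HHIP were at or below 1.11 FPKM in all 6 libraries. By GD90 the order had changed. PTCH1 was then second to SMO, with mean levels of 6.08 ± 1.14 and 8.55 ± 0.586 FPKM (SD, n = 6), GLI3 was at 3.43 ± 0.527 FPKM, and HHIP at 1.39 ± 0.194 FPKM had moved above SHH, GLI2 and GLI1, although its range still overlapped those of SHH and GLI2.

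SMO and GLI3 fell in both sexes over both periods, BOC fell in 3 of the 4 comparisons between gestation days, and HHIP rose in both sexes over the later period. From GD45 to GD60, 4 of the 9 members fell in females (SMO, GLI3, BOC and GLI1) and 3 in males (SMO, GLI3 and BOC), and none rose in either sex. Among all 16325 genes tested, 2.88% fell and 4.34% rose in females, and 2.53% fell and 3.08% rose in males. Over the later period, 5 members fell in females (SMO, GLI3, BOC, GLI2 and CDON) where 13.4% of all genes fell, and HHIP rose where 13.7% rose. In males of the same period SMO and GLI3 fell, where 16% of all genes fell, and HHIP rose, where 18.5% rose. The members' median log2 fold change was -0.60 in females and -0.65 in males from GD45 to GD60, and -0.51 and -0.22 from GD60 to GD90, while the median of all genes tested stayed between -0.04 and 0.01. A gene was called where its p from the quasi-likelihood test of edgeR, adjusted by Benjamini-Hochberg over all genes tested, was below 0.05. In whole brains, fewer cells of a type cannot be told apart from less RNA per cell.

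**Figure D1:**
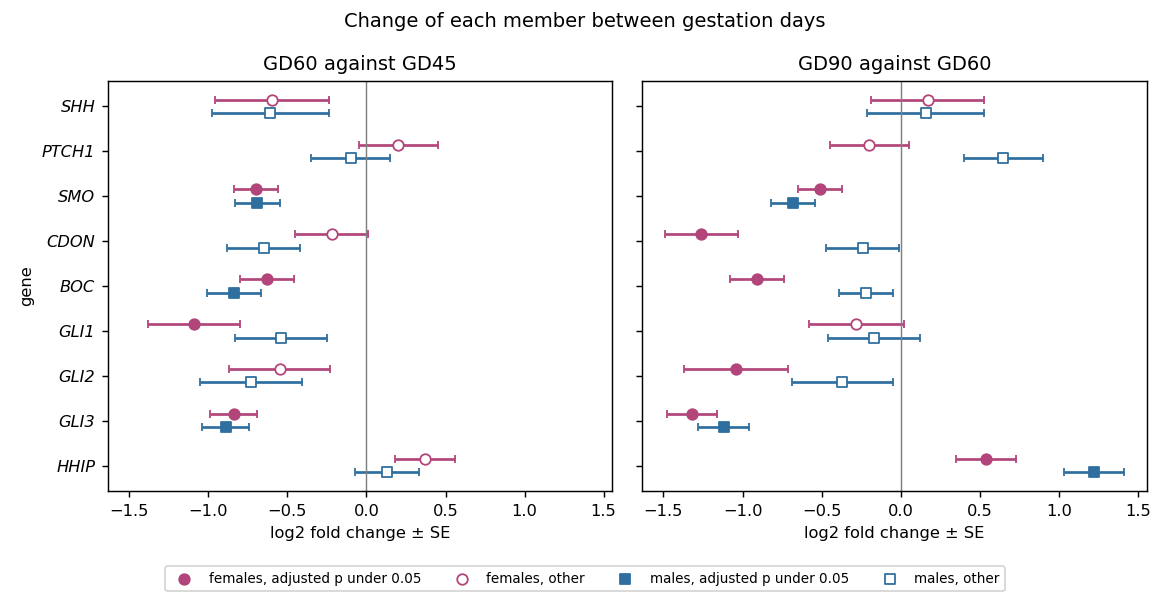
Log2 fold change (x axis) of each of the 9 genes (y axis) for the earlier step (GD60 against GD45) and the later (GD90 against GD60), in females (circles) and males (squares), with standard errors as bars; filled symbols have an adjusted p below 0.05. GLI3 and SMO lie left of 0 in all 4 comparisons, and HHIP lies farthest to the right from GD60 to GD90 in males, at 1.22.

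**Figure D2:**
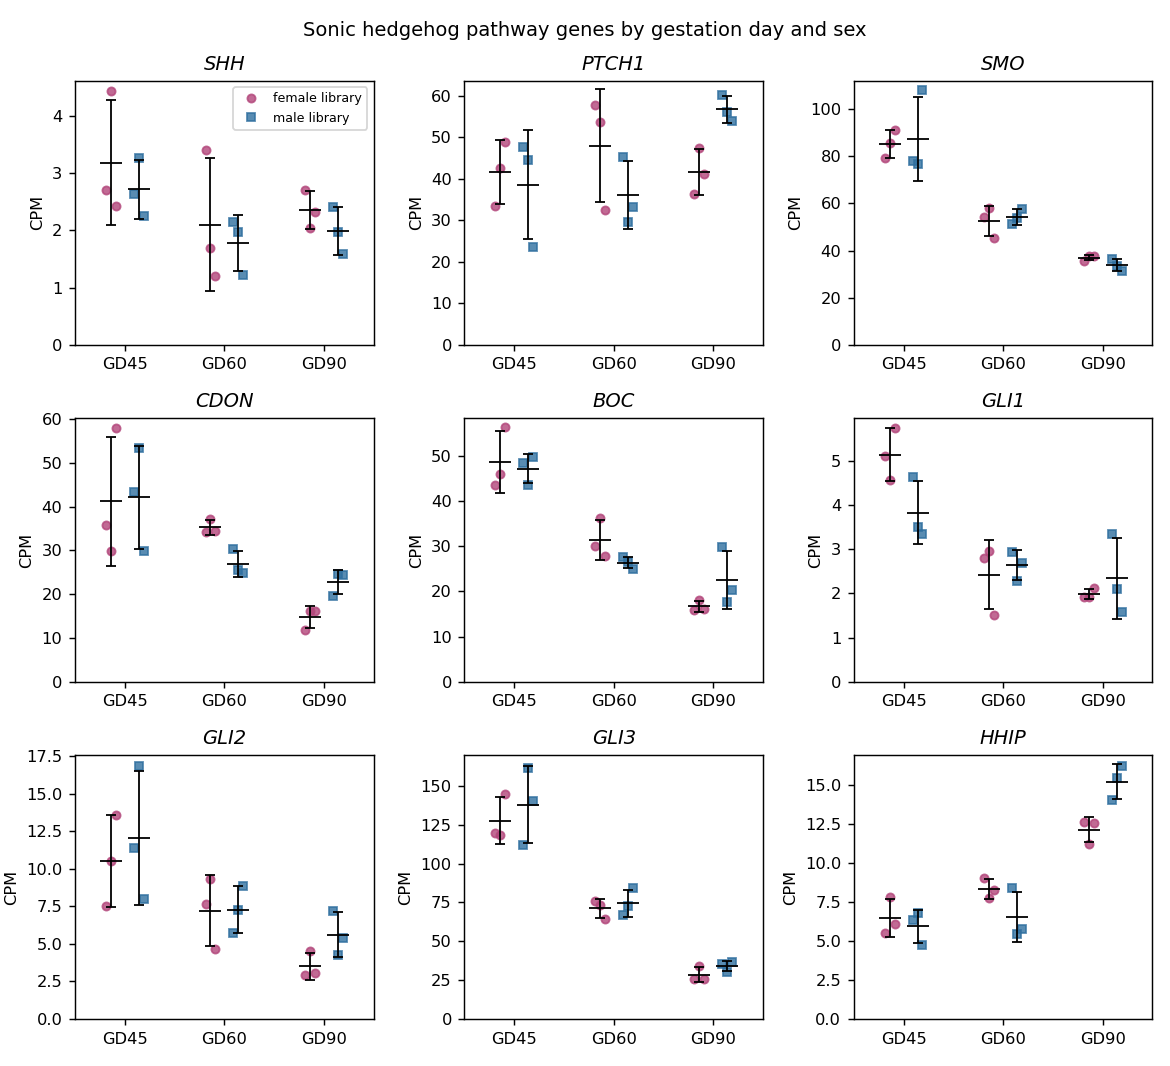
CPM (y axis, from 0) of each gene in every library at GD45, GD60 and GD90 (x axis), females as circles and males as squares, with the mean and SD of each 3 libraries in black. SMO, GLI3 and BOC step down over the days, HHIP stands highest at GD90, and SHH stays below 5 CPM throughout.

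SHH, the secreted ligand (ENSSSCG00000016416, Sscrofa11.1 chromosome 18, 2545718 to 2555484, plus strand, the build of all positions given), had 19 to 80 counts per library. Its level was 2.70, 4.44 and 2.42 CPM in the GD45 females, 3.41, 1.69 and 1.2 CPM in the GD60 females and 2.70, 2.05 and 2.32 CPM in the GD90 females. The males had 2.64, 3.26 and 2.25 CPM at GD45, 2.14, 1.97 and 1.22 CPM at GD60 and 2.41, 1.97 and 1.58 CPM at GD90. The female groups overlapped at every step, and in males only the GD45 and GD60 groups were apart, with all GD60 values lower. The log2 fold change from GD45 to GD60 was -0.60 ± 0.36 (SE) in females and -0.61 ± 0.37 in males, with adjusted p of 0.352 and 0.414 by edgeR. Over the later period the values were 0.17 ± 0.36 and 0.16 ± 0.37. At this depth no change of SHH was detectable.

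PTCH1, the receptor that holds SMO inactive (ENSSSCG00000027312, chromosome 10, 26627325 to 26703225, plus strand), passed the test in no comparison. Its level was 33.6, 42.6 and 49.0 CPM in females at GD45, 57.9, 53.8 and 32.4 CPM at GD60 and 36.4, 47.5 and 41.1 CPM at GD90. In males it was 47.8, 44.5 and 23.5 CPM at GD45, 45.3, 29.6 and 33.2 CPM at GD60 and 60.2, 56.1 and 54.0 CPM at GD90. All 3 GD90 males were above every male of GD60 and above every female of GD90, while the female groups overlapped at each step. In females the log2 fold changes were 0.20 ± 0.25 and -0.20 ± 0.25 over the earlier and the later period, and in males -0.10 ± 0.25 and 0.65 ± 0.25. The last of these, 1.57-fold, missed the threshold in edgeR's quasi-likelihood test (adjusted p = 0.0542) and passed it in DESeq2 (adjusted p = 0.0365), in the fit of the 6 libraries alone (adjusted p = 0.00466) and without male GD45 replicate 17 (adjusted p = 0.0147), female GD60 replicate 15 or male GD60 replicate 4. After removal of the trend on gene length from each library it was 0.41 ± 0.19 (adjusted p = 0.109).

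PTCH1 is a direct target of the GLI factors, which bind the letters GACCACCCA, and the pig gene was therefore searched for them on both strands. Of the 9 members, PTCH1 alone held the 9 bases within 1000 bases of its RefSeq gene start, which 1.6% of 19557 protein-coding genes did. The stretch lies on Sscrofa11.1 at chr10:26627256-26627284 on the plus strand, in a part of the first RefSeq exon that is not coding, with the 9 bases (in capitals) starting 101 bases after the RefSeq gene start and 59 bases before the gene start of the deposited annotation, and it is shown because no other member held these letters so near its start.
PTCH1 site: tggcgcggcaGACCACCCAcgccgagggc
No member held the 9 bases in the window from 250 bases before to 50 after the RefSeq gene start, where 0.256% of these genes did. The match is a description of the sequence, and binding was not measured.

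The coreceptors CDON and BOC are cell surface proteins that present SHH to PTCH1, and both fell in females from GD60 to GD90. CDON (ENSSSCG00000022504, chromosome 9, 53079550 to 53178881, minus strand) stood at 35.8, 29.9 and 57.9 CPM in GD45 females, 34.2, 37.1 and 34.4 CPM in GD60 females and 11.8, 16.2 and 16.2 CPM in GD90 females. In males CDON stood at 43.2, 53.3 and 29.9 CPM at GD45, 30.4, 25.5 and 24.8 CPM at GD60 and 19.6, 24.5 and 24.3 CPM at GD90. The GD45 values were widely spread in both sexes, and every GD90 library was below every GD60 library of its sex. Between GD60 and GD90 CDON fell 2.39-fold in females, with a log2 fold change of -1.26 ± 0.23 (adjusted p = 0.00079, edgeR). The male value over the same period was -0.24 ± 0.23 (adjusted p = 0.438). From GD45 to GD60 neither sex passed the test, at -0.22 ± 0.23 in females and -0.65 ± 0.23 in males, but without male GD45 replicate 17, the lowest male CDON value of its day, the male change was -0.86 (adjusted p = 0.0207).

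BOC (ENSSSCG00000025826, chromosome 13, 146625957 to 146703936, minus strand) was at 43.5, 46.0 and 56.2 CPM in GD45 females, 30.1, 36.2 and 27.8 CPM in GD60 females and 15.9, 18.0 and 16.1 CPM in GD90 females. Male BOC levels were 48.4, 43.4 and 49.6 CPM at GD45, 27.5, 26.5 and 25.0 CPM at GD60 and 29.8, 17.6 and 20.2 CPM at GD90. The female groups were apart at both steps, and the male groups overlapped between GD60 and GD90 through male GD90 replicate 1, at 29.8 CPM. BOC fell 1.55-fold in females and 1.79-fold in males from GD45 to GD60, with adjusted p of 0.0305 and 0.00658 (edgeR), and again 1.88-fold in females from GD60 to GD90 (adjusted p = 0.000859). The change in males over the later period was -0.22 ± 0.17 on the log2 scale (adjusted p = 0.32), and -0.48 (adjusted p = 0.0298) without male GD90 replicate 1. The earlier female call was lost without female GD45 replicate 13 or 18 or female GD60 replicate 3 or 15 (adjusted p up to 0.137).

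SMO, the membrane protein that carries the signal into the cell (ENSSSCG00000016569, chromosome 18, 19450734 to 19479374, minus strand), fell at both steps in both sexes. It was at 79.2, 85.7 and 91.2 CPM in females at GD45, 54.5, 57.9 and 45.4 CPM at GD60 and 35.6, 37.5 and 37.6 CPM at GD90. The male SMO levels were 77.9, 76.7 and 108 CPM at GD45, 51.1, 53.6 and 57.8 CPM at GD60 and 36.6, 33.5 and 31.5 CPM at GD90. The 3 days did not overlap in either sex, and at each day the sexes overlapped. SMO fell 1.62-fold in females and 1.62-fold in males from GD45 to GD60 (adjusted p = 0.00519 and 0.00562, edgeR). At the later step it fell 1.42-fold in females and 1.6-fold in males (adjusted p = 0.0106 and 0.00142). The later female call was lost without female GD60 replicate 5 (adjusted p = 0.0548) and without the pair of female GD90 replicate 2 and male GD90 replicate 1 (adjusted p = 0.0522).

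GLI3, which in the absence of signal is the main repressor of hedgehog target genes (ENSSSCG00000016763, chromosome 18, 52404071 to 52697903, plus strand), fell in all 4 comparisons between days. Females had GLI3 levels of 119.6, 118 and 145 CPM at GD45, 75.8, 73.5 and 64.3 CPM at GD60 and 25.5, 33.9 and 25.9 CPM at GD90. Males had GLI3 levels of 112, 162 and 140.0 CPM at GD45, 66.8, 72.4 and 84.1 CPM at GD60 and 35.1, 30.5 and 36.8 CPM at GD90. No library of one day reached the range of another day. GLI3 fell 1.79-fold in females and 1.85-fold in males from GD45 to GD60, with adjusted p of 0.00368 and 0.00236 (edgeR), and 2.5-fold and 2.18-fold from GD60 to GD90, with adjusted p of 1.4e-05 and 6.2e-05. In the fit of only the 6 male libraries compared, the earlier calls of GLI3, SMO and BOC in males were lost (adjusted p = 0.121, 0.174 and 0.101) at nearly the same fold changes. When each library was left out in turn, no call of GLI3 was lost.

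GLI2, the main activator downstream of SMO (ENSSSCG00000015733, chromosome 15, 30313817 to 30579306, minus strand), was at 7.5, 10.5 and 13.6 CPM in GD45 females, 7.66, 9.35 and 4.65 CPM in GD60 females and 2.94, 4.51 and 3.04 CPM in GD90 females. GLI2 in males was at 11.4, 16.9 and 8.01 CPM at GD45, 5.71, 7.29 and 8.83 CPM at GD60 and 7.22, 4.25 and 5.38 CPM at GD90. Neighbouring days overlapped except for the females of GD60 and GD90. GLI2 fell 2.06-fold in females from GD60 to GD90 (log2 fold change -1.04 ± 0.33, adjusted p = 0.0276, edgeR), a call that was lost without female GD60 replicate 3 or 5 or female GD90 replicate 2 or 9 (adjusted p up to 0.127). The other GLI2 changes were -0.55 ± 0.32 and -0.73 ± 0.32 from GD45 to GD60 in females and males, and -0.37 ± 0.32 in males from GD60 to GD90.

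GLI1, an activator whose own transcription is a common readout of pathway activity (ENSSSCG00000000443, chromosome 5, 22732516 to 22747421, plus strand), was the least expressed of the 3 factors per length. GLI1 levels in females were 5.10, 4.56 and 5.75 CPM at GD45, 2.81, 2.95 and 1.52 CPM at GD60 and 1.92, 1.92 and 2.12 CPM at GD90. In the males GLI1 was at 4.64, 3.51 and 3.34 CPM at GD45, 2.94, 2.27 and 2.69 CPM at GD60 and 3.35, 2.09 and 1.58 CPM at GD90. All GD60 libraries were below all GD45 libraries of their sex, and GD60 and GD90 overlapped. GLI1 fell 2.12-fold in females from GD45 to GD60 (log2 fold change -1.09 ± 0.29, adjusted p = 0.0292, edgeR), and the male value was -0.54 ± 0.29 (adjusted p = 0.345). The female call was lost without any 1 of the 3 female GD45 libraries or without female GD60 replicate 3 or 15 (adjusted p up to 0.102). Over the later period the values were -0.28 ± 0.30 and -0.17 ± 0.29.

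HHIP, the membrane protein that binds and sequesters hedgehog ligands (ENSSSCG00000009045, chromosome 8, 83583737 to 83679136, minus strand), was the only member that rose. Its level was 5.51, 7.83 and 6.10 CPM in the GD45 females, 9.04, 7.78 and 8.25 CPM in the GD60 females and 12.6, 11.2 and 12.6 CPM in the GD90 females. For males it was 6.33, 6.77 and 4.74 CPM at GD45, 8.37, 5.44 and 5.76 CPM at GD60 and 14.04, 15.5 and 16.2 CPM at GD90. Every GD90 library was above every library of the earlier days. Between GD60 and GD90 HHIP rose 2.33-fold in males (log2 fold change 1.22 ± 0.19, adjusted p = 0.000189, edgeR) and 1.45-fold in females (0.54 ± 0.19, adjusted p = 0.0455). The male call held under every alternative run, and the female call was lost without TMM scaling (adjusted p = 0.144), without the filter on low counts (adjusted p = 0.0977) and on leaving out any of 11 single libraries. The earlier changes were 0.37 ± 0.19 in females and 0.13 ± 0.20 in males, with adjusted p of 0.287 and 0.795.

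Ratios between members within a library do not depend on the scaling between libraries, and they differed between the days. Per length, PTCH1 over SMO was 0.217, 0.254 and 0.275 in GD45 females, 0.544, 0.476 and 0.366 in GD60 females and 0.523, 0.648 and 0.56 in GD90 females. The PTCH1 over SMO ratio in males was 0.314, 0.297 and 0.111 at GD45, 0.453, 0.283 and 0.294 at GD60, and 0.842, 0.857 and 0.876 at GD90. The GD90 males were thus the group with the most receptor RNA per transducer RNA, without overlap with any other group. HHIP over SMO had means of 0.032 and 0.03 in GD45 females and males, 0.0677 and 0.0512 at GD60 and 0.139 and 0.191 at GD90, and all GD90 libraries were above all others. GLI3 over GLI1 ranged from 5.96 to 26.2 over the 18 libraries (median 14), with group means of 8.19 and 9.18 in GD90 females and males and 14.1 to 21.3 at the earlier days. GLI3 RNA therefore exceeded GLI1 RNA per length in every library. These ratios were not tested, and since SMO is the shorter gene (4140 bases, against 8093 for PTCH1 and 9829 for HHIP), the trend on gene length described below for GD90 touches them. Changes between days also moved with length. From GD45 to GD60, genes of 2506 to 4185 bases had a median log2 fold change of -0.02 in females and those of 6346 or more 0.12. In males these medians were -0.04 and -0.01. From GD60 to GD90 they were 0.02 and -0.14 in females, and -0.04 and 0.17 in males.

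**Figure D3:**
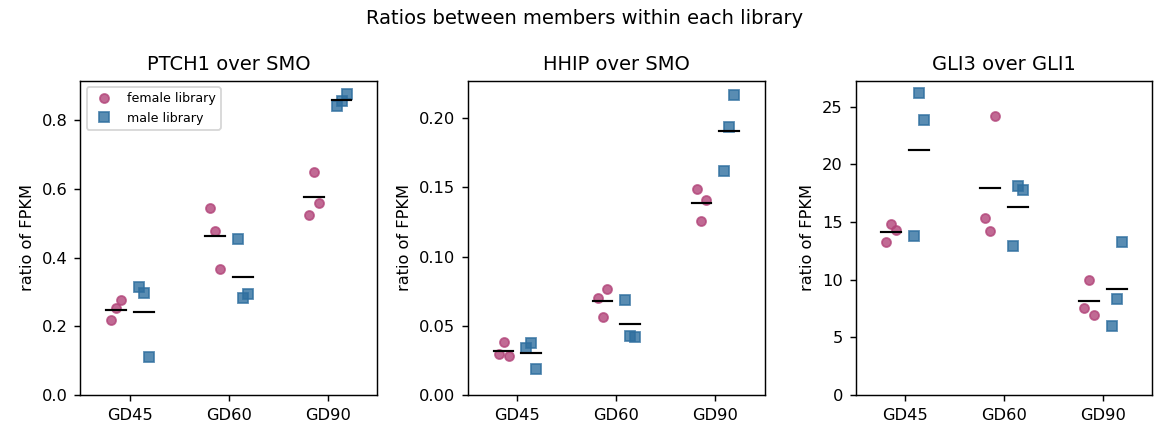
Ratio of FPKM (y axis, from 0) between 2 members within each library, by gestation day (x axis), for females (circles) and males (squares), with the group mean as a black line. PTCH1 over SMO reaches 0.842 to 0.876 in the 3 GD90 males, HHIP over SMO is highest at GD90 in both sexes, and GLI3 over GLI1 is lowest there, with the GD90 range (5.96 to 13.3) overlapping that of the earlier days.

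None of the 9 genes was called between males and females at any gestation day by edgeR, where 0.0919% of all genes passed at GD45, 0.098% at GD60 and 0.098% at GD90. At an unadjusted p below 0.05 there were 0, 0 and 2 members at the 3 days, CDON and BOC at GD90, beside 423, 784 and 2213 of all genes. The likelihood ratio test of edgeR and DESeq2 also called 0 members at each day, beside 42 and 52 of all genes at GD90. The share of all genes called at GD90 depended on the fit. With only the 6 GD90 libraries, 1062 of 15427 genes were called between the sexes, and again 0 members. CDON at GD90 was 1.55-fold higher in males (log2 difference 0.63 ± 0.23, adjusted p = 0.35), with all 3 males above all 3 females, and BOC was 1.35-fold higher (0.43 ± 0.17, adjusted p = 0.35), with overlap. PTCH1 and HHIP in GD90 males were also above all GD90 females, by log2 differences of 0.44 ± 0.25 and 0.33 ± 0.19 (adjusted p = 0.394 and 0.398). The test of whether the change from GD60 to GD90 differed between the sexes called 0 of the 9 members and 0% of all genes, with 4 members (PTCH1, HHIP, CDON and BOC) and 3232 genes at an unadjusted p below 0.05. The likelihood ratio test of edgeR called 129 genes and DESeq2 277, among them 0 members. The difference for CDON was 1.02 ± 0.33 on the log2 scale (adjusted p = 0.196), and 1.01 (adjusted p = 0.0331) without male GD45 replicate 17, the only setting that gave a call. For the change from GD45 to GD60 the same test called 0 members and 0% of genes, with no member and 333 genes at an unadjusted p below 0.05, and so did the likelihood ratio test and DESeq2. A call of CDON, BOC or GLI2 in females alone therefore does not show a difference between the sexes.

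At GD90, the difference between males and females moved with gene length across all genes. Its median was -0.26 on the log2 scale in the 4081 shortest genes (at most 2505 bases) and 0.20 in the 4083 longest (6346 bases or more), which include PTCH1, GLI3, HHIP, CDON and BOC. With that trend removed in each library, the male to female log2 difference at GD90 was 0.43 ± 0.19 for CDON, 0.25 ± 0.18 for BOC, 0.23 ± 0.19 for PTCH1 and 0.05 ± 0.17 for HHIP, and the rise of HHIP from GD60 to GD90 was 0.94 ± 0.17 in males and 0.66 ± 0.17 in females. The male changes of CDON and BOC over that period were then -0.48 ± 0.19 and -0.45 ± 0.18 (adjusted p = 0.0577 and 0.0546), larger than the -0.24 and -0.22 given above, and the female changes were -1.19 ± 0.19 and -0.84 ± 0.18. At GD60 the trend ran the other way, with medians of 0.14 in the same shortest and -0.13 in the same longest genes. For the difference between the sexes in the change from GD60 to GD90, these medians were -0.39 and 0.32. With the trend removed, that difference was 0.71 ± 0.27 for CDON, 0.51 ± 0.27 for PTCH1, 0.39 ± 0.25 for BOC and 0.28 ± 0.24 for HHIP. The values in the reported fit were 1.02, 0.86, 0.69 and 0.68. The part of the trend in these differences was otherwise not tested.

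The same comparisons were made for counts on single exons. SMO, with all 12 exons tested, was lower in each exon in all 4 comparisons of days, and 3 exons passed the test in males from GD60 to GD90, where 8.61% of 80134 exons did. GLI3 had 9 exons tested, all lower from GD60 to GD90, and 3 passed in females, where 3.63% of exons did, and 1 in males. For GD60 against GD45 no exon of a member passed in either sex, where 0.162% of exons passed in females and 0.0262% in males. From GD60 to GD90, exon values of PTCH1 and CDON differed in sign between the sexes, a difference that was not tested. All 10 PTCH1 exons tested had lower values in females (median log2 fold change -0.63) and higher values in males (median 1.13), none past the threshold. CDON had 9 of 9 exons lower in females (median -2.23, 1 called) and 7 of 9 higher in males (median 0.89), where the gene as a whole was lower and 1 exon was called lower. Exons of a gene share their libraries and are not independent, and the exon table held 27.6% of the gene counts of PTCH1, 93.8% of CDON, 93.1% of GLI2, 19.1% of HHIP and 23.7% of GLI1. No exon of GLI1 passed the filter, and 1 each of GLI2 and HHIP did. That exon of HHIP had log2 fold changes of -0.75 in males and 0.11 in females from GD60 to GD90, neither called, where the gene rose in both. Of 36 BOC exons 10 were tested, and the exon table held 38.9% of the gene counts of BOC. All 10 had lower values in females from GD60 to GD90 (median log2 fold change -0.79), and 1 was called. In males 8 had lower and 2 higher values (median -0.33), none called.

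Of the 89 other pathway genes listed, in 5 lists from ligand release to target genes, 85 were tested. From GD45 to GD60, 2 rose and 5 fell in females, 8.24% in all against 7.22% of all genes, and 1 rose and 5 fell in males, 7.06% against 5.61%. Over the later period, 11 rose and 23 fell in females, 40% against 27.1% of all genes, and 17 rose and 15 fell in males, 37.6% against 34.5%, and the male split was 15 to 23 with the length trend removed. Their median log2 fold change was 0.02, -0.08, -0.25 and -0.00 in the 4 comparisons, against -0.60, -0.65, -0.51 and -0.22 for the 9 members. Of the other hedgehog ligands, IHH had at most 7 counts in a library and was not tested, and DHH had at most 33 counts. GAS1, a further coreceptor gene, and SCUBE2 matched no symbol and were not analysed here.

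Among the genes of ligand release, SCUBE1 and DISP3 fell in both sexes from GD60 to GD90. SCUBE1, whose family helps release of the lipid-bearing ligand, ranged from 106 to 156 CPM at GD60 and from 35.3 to 59.3 CPM at GD90, a log2 fold change of -1.52 in females and -1.27 in males (adjusted p = 2.1e-06 and 1.1e-05, edgeR). PTCHD1, a relative of PTCH1, rose to 17.3 to 27 CPM at GD90 from 7.04 to 11.5 CPM at GD60. SUFU, the cytoplasmic inhibitor of the GLI factors, lay between 5.29 and 15.1 CPM in all 18 libraries and passed no test, with log2 fold changes between days of -0.37 to 0.35 and a log2 difference of 0.44 between males and females at GD90 (SE 0.32). KIF7, the ciliary motor that binds GLI proteins, fell by 0.51 in females and by 0.55 in males from GD60 to GD90. DLG5 fell by 1.24 and by 0.60 on the log2 scale. In that period, 1 of the 25 intracellular regulators tested rose and 3 fell in females (16%, against 27.1% of all genes). In males 7 rose and 3 fell (40%, against 34.5%).

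Of the 24 primary cilium genes tested, 8 fell and 1 rose in females from GD60 to GD90 (37.5%, against 27.1% of all genes), and 3 fell and 3 rose in males (25%, against 34.5%). IFT122, part of the transport complex that returns cargo from the ciliary tip, was called in both (log2 fold change -0.70 and -0.52). The median log2 fold change of the cilium genes was -0.35 in females and -0.15 in males. Targets and ventral patterning genes, 23 in all, were the list with the highest share called, 65.2% in females and 47.8% in males over that period (27.1% and 34.5% of all genes). In females 6 rose and 9 fell, and in males 6 rose and 5 fell, with medians over the list of -0.49 and -0.35. DBX2, a homeobox gene of the intermediate neural tube, rose from 2.5 to 5.03 CPM at GD60 to 13.7 to 25.6 CPM at GD90. NKX6-2, a homeobox gene of ventral precursors and oligodendrocytes, had at most 3 counts in each GD60 library and 15 to 43 counts in each GD90 library. SFRP1, a secreted Wnt inhibitor, and NKX2-1, a transcription factor of the ventral forebrain, fell, the latter from 11.4 to 14.1 CPM at GD60 to 2.76 to 5.03 CPM at GD90. At the earlier step 1 of these 23 genes rose and 5 fell in each sex (26.1%, against 7.22% of all genes in females and 5.61% in males). No gene of the receptor, intracellular regulator or cilium lists was called at that step. From GD45 to GD60, OLIG1, a transcription factor of oligodendrocyte precursors, rose (73 to 118 CPM at GD45, 154 to 199 CPM at GD60), and the homeobox gene DBX1, the cyclin gene CCND1 and SOX9, a transcription factor of neural progenitors and glia, fell, DBX1 from 36 to 83 counts per library to 1 to 12 counts.

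**Figure D4:**
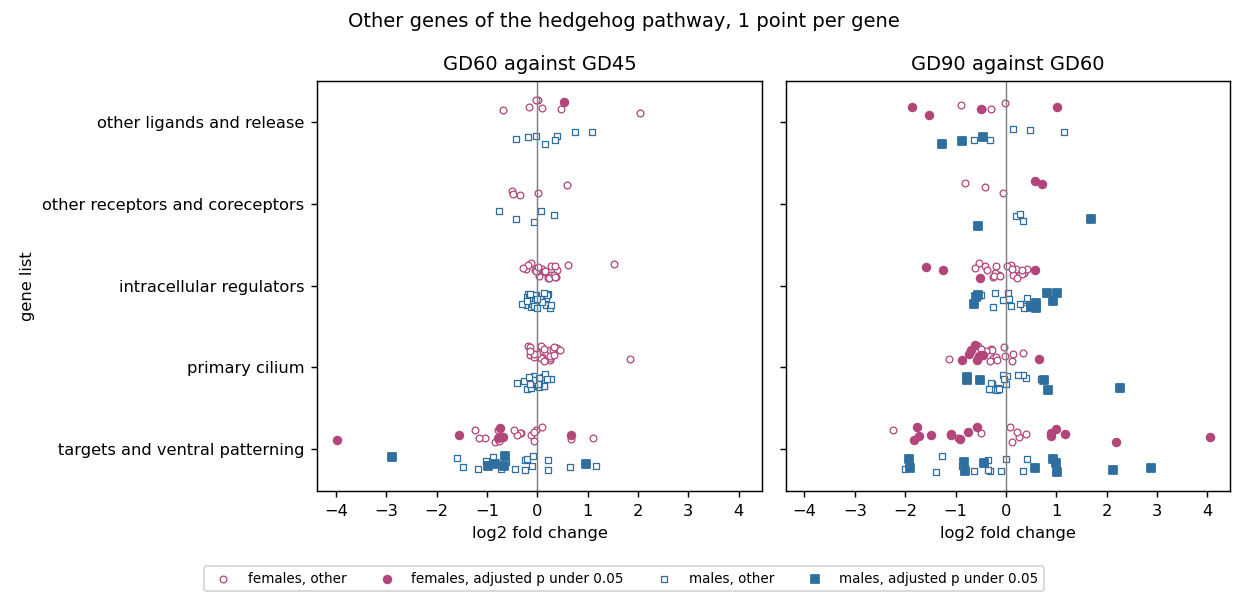
Log2 fold change (x axis) of the other pathway genes tested, 1 point per gene, by list (y axis), for the earlier step (GD60 against GD45) and the later (GD90 against GD60), in females (circles) and males (squares); filled symbols have an adjusted p below 0.05. Filled points are few in the earlier period (7 genes in females, 6 in males) and spread to both sides of 0 in the later one (34 and 32 genes).

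Markers of dividing cells moved with SMO and GLI3, which fell in both sexes at both steps. The 7 cycling genes measured, such as MCM2 and CDK1, all fell in both sexes from GD45 to GD60, and 7 in females and 6 in males fell from GD60 to GD90. Their summed level was 442 to 555 CPM at GD45, 199 to 258 CPM at GD60 and 110 to 147 CPM at GD90. Among all genes tested, 4.34% rose and 2.88% fell in females at the earlier step, and 3.08% rose and 2.53% fell in males. At the later step 13.7% rose and 13.4% fell in females, and 18.5% rose and 16% fell in males. Astrocyte markers summed to 119 to 302, 343 to 516 and 1438 to 1937 CPM at the 3 days, and oligodendrocyte markers to 88.2 to 156, 160 to 218 and 2084 to 3459 CPM, beside the rise of HHIP. From GD60 to GD90, 4 of 7 astrocyte markers rose in females and 6 of 7 in males, and 8 of 8 oligodendrocyte markers rose in both. Neuron markers also moved in that direction, 6 of 10 rising in females and 7 of 10 in males, where 1 fell, with sums of 8121 to 10133 CPM at GD60 and 9219 to 10412 CPM at GD90. Of the microglia markers 3 of 5 rose in each sex (66.8 to 90.7 CPM at GD60, 119 to 157 CPM at GD90), and of the Purkinje cell markers 2 of 7 in females and 5 of 7 in males (61.8 to 113 and 128 to 231 CPM). Granule neuron progenitor markers summed to 201 to 448 CPM at GD45, 115 to 277 CPM at GD60 and 91.3 to 331 CPM at GD90, and of the 7 genes 1 fell in males at the earlier step and 1 in females at the later. Radial glia markers summed to 2190 to 2986, 1899 to 2178 and 1784 to 1997 CPM at the 3 days. Of these 8 genes, 3 fell and 1 rose in females at the earlier step, and 2 fell and none rose in males. At the later step 2 fell and 2 rose in females, and 3 fell and 3 rose in males. Choroid plexus markers summed to 973 to 1549, 705 to 1179 and 426 to 931 CPM, with 1 or 2 of 6 genes lower in each comparison of days. In male GD90 replicate 1, GLI1 (3.35 CPM), GLI2 (7.22 CPM), BOC (29.8 CPM) and PTCH1 (60.2 CPM) were the highest of the 6 GD90 libraries, and the other members were not. This library was also highest of its day in granule neuron progenitor (331 CPM), cycling (147 CPM), radial glia (1997 CPM), astrocyte (1937 CPM) and oligodendrocyte (3459 CPM) markers. So it was in markers of floor plate, meninges, and skull cartilage and muscle, and in posterior HOX genes. It was not highest in neuron, Purkinje cell, microglia or choroid plexus markers. The part of these cell types in the changes was not tested.

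The genes most like each member over the 18 libraries, by Pearson's r of log2 CPM, were found among all genes with a symbol. For SMO they were SAP30, MCM2 and NEK2 (r = 0.986, 0.986 and 0.984), for BOC they were CENPF, KIF15 and LHX5 (0.976, 0.971 and 0.968), and for GLI3 they were PHF21B, TCF3 and CBX2 (0.988, 0.984 and 0.984). GLI2 was nearest to ASPM, TIMELESS and CECR2 (0.953, 0.936 and 0.929), and GLI1 to TYMS, TFAP2A and CDK2 (0.930, 0.928 and 0.893). Genes of DNA replication or mitosis among these neighbours include MCM2, NEK2, CENPF, KIF15, ASPM and TYMS. HHIP was nearest to GPCPD1, CNTN1 and TLCD4 (0.974, 0.973 and 0.971), CDON to RESF1 (0.967) and PTCH1 to PPM1B, NF1 and WNK1 (0.961, 0.953 and 0.947). SHH had the weakest likeness, with APMAP at 0.836. The libraries share their gestation days, and these values are descriptions.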

How the data were processed

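Per the labels and the methods of the study, libraries were made from total RNA of whole fetal brains, and paired-end reads were trimmed (Trimmomatic), mapped to Sscrofa11.1 (HISAT2) and assigned to Ensembl features (featureCounts). Raw counts per gene and per exon, as deposited by the authors, were used here; a transcript table was not. The sources used here give no strand option, so overlapping genes are uncertain. The 22 columns hold 18 libraries, and the repeat runs of 4 libraries were summed.

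Counts were fitted with edgeR 4.0.16 in R 4.3.3 (TMM, filterByExpr, 1 model of 6 groups, quasi-likelihood F test, Benjamini-Hochberg adjustment, threshold 0.05), over 16325 genes and, separately, 80134 exons. Tested on simulated counts for GD90 against GD60 in males, with 200 features changed by 2 on the log2 scale, the fit recovered 97.5% of the changed genes with 10 false calls among 16082, and 67.5% of the changed exons with 5 among 75269. The changes put into the simulated counts were larger than that of any member, and no other feature was changed. Changed features were drawn only from those above a floor on their mean count. Recovery of changes of the members' size, or of features with few counts, was therefore not measured. FPKM used the gene lengths of the deposited table, and log2 CPM a prior count of 2.

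The members and lists were chosen with earlier results of these data known. The text gives all members, of the other lists up to 4 genes per list and period called alike in both sexes, SUFU and GAS1, and for each member genes among the 3 of highest Pearson's r. The ligands IHH and DHH were named in addition, after their values were seen. A further gene named by this rule is not reported here. Alternatives were the likelihood ratio test, DESeq2 1.42.0, no TMM factors, other filters, fewer libraries, first runs alone, and the litter as a block, also with limma 3.58.1. Gene starts and the PTCH1 sequence are from RefSeq on Sscrofa11.1.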

Additional observations from a re-analysis of the deposited data

How the results depend on the processing

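No called change of a member turned its direction under any alternative. Over the alternatives other than leaving out 1 library, including 2 chosen after seeing the data, 345 of 360 values of members between gestation days stayed on their side of the threshold, 10 lost and 5 gained the call, and the 432 values for sex and interactions kept theirs. With only the 6 libraries compared, the count of members called from GD45 to GD60 in males went from 3 to 0, and that of other pathway genes from 6 to 0. For the same step, other pathway genes called numbered 16 by edgeR's likelihood ratio test and 18 by DESeq2 in females (7 in the reported fit) and 11 with either in males. Without the pair of female GD90 replicate 2 and male GD90 replicate 1, an added setting, 3 members and 21 other pathway genes were called in females from GD60 to GD90, against 6 and 34; the other added setting removed the trend on gene length. On leaving out 1 library at a time, members called ranged from 2 (without female GD45 replicate 13) to 4 in females and from 3 to 4 in males from GD45 to GD60, from 3 (without female GD60 replicate 5) to 6 in females and from 3 to 4 in males from GD60 to GD90, and from 0 to 1 (CDON, without male GD45 replicate 17) for the later interaction. The other pathway genes ranged from 2 (without female GD60 replicate 3) to 22 and from 3 (without male GD60 replicate 4) to 10 at the earlier step in females and males, and from 21 (without female GD90 replicate 2) to 41 and from 23 to 43 at the later, all 4 highest counts arising without male GD45 replicate 17. With the litter, inferred from gestation day and litter size, as a replicate block in limma (correlation 0.104), 4, 3, 5 and 3 members were called between days, GLI2 in females being lost (adjusted p = 0.0694). In a separate edgeR fit with the litter as a fixed block, 0 members were called for sex and interactions. The causes of these shifts were not tested. The genes with fewest counts, SHH and GLI1, allow the least firm statements.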
